A study of Mus musculus with 14 samples.

Results

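The genes described here code for receptors of the neurotransmitters glutamate, GABA, glycine, acetylcholine, 5-hydroxytryptamine (serotonin), dopamine and noradrenaline, and of the opioid peptides, together with proteins whose names carry one of these receptors. They are the UniGene ids whose deposited title opens with one of 8 receptor family names; the ids of Glrb and Chrm1 were set aside by the same rule. The rule gave 88 ids among the 22221 with counts. Of these, 76 are receptor subunits (20 for glutamate, 15 for GABA, 14 for acetylcholine, 10 for serotonin, 8 adrenergic, 4 for dopamine, 3 opioid and 2 for glycine). The other 12 are accessory proteins such as receptor kinases, scaffolds and GABA receptor-associated proteins. The rule reads titles only and uses no measured value.

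The study sequenced short signatures from mRNA of 7 tissues of C57BL6 mice, with 1 library from females and 1 from males for each. The groups are hippocampus, entire spinal cord, bone marrow, liver, pancreas, parotid gland and stomach. The labels name no treatment and give total RNA as the starting material. The liver libraries differ in more than sex, being titled right lobe for the female and left lobe for the male. Neither the ages nor the number of mice behind a library are stated, so the p-values measure the spread between these libraries only.

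Fast transmission runs through receptors that are ion channels built from several subunits: AMPA, kainate and NMDA receptors open to glutamate, GABA-A and glycine receptors pass chloride, and nicotinic receptors open to acetylcholine. Slower transmission runs through receptors coupled to G proteins, among them the metabotropic glutamate, GABA-B, muscarinic, adrenergic, dopamine, opioid and most serotonin receptors. The hippocampus is known for its AMPA-rich excitatory synapses, the spinal cord for inhibition by glycine, and organs outside the nervous system for the muscarinic and adrenergic receptors that answer autonomic nerves.

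Each signature is the 20 bases that begin at the DpnII site nearest the 3′ end of a cDNA, and a gene can have several when transcripts differ in their ends or when digestion is partial. The signatures printed here are the most abundant one of each receptor on which the results turn, 5′ to 3′, with the DpnII recognition site in capitals. The first lines give the glutamate and GABA receptor subunits.
Gria1: GATCagacactaaatatttg
Gria2: GATCatacaaaataatttga
Gria4: GATCttttttgtctttacct
Grin1: GATCcctcggtcagcaccgt
Grik5: GATCtgtggcctcatcattg
Gabra3: GATCtttgcctctctgtaga
Gabra4: GATCtttagagaatctacca
Gabbr1: GATCtccctgaatctcaata

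Glycine, acetylcholine, serotonin, adrenergic and opioid receptors were read from these signatures.
Glra1: GATCagggaggggattggga
Glra2: GATCaagttagcatactatg
Chrm2: GATCcagaagaaatgatggc
Chrm3: GATCagcttctgtcctccct
Htr1a: GATCatttacttgaaataaa
Htr7: GATCagaagagtacccatgc
Adrb1: GATCtttaaaaagctaaaat
Adra2a: GATCaaatgtgaaataaaca
Oprl1: GATCttacacagagaccttg
The genomic position of these signatures was not determined here. Counts of all signatures of a gene were added together, and 27 of the 87 members with signatures listed had 1 signature only. The median member had 95.3% of its counts in its most abundant signature, and Gabbr1 had the most signatures, 15. Since a transcript is read at 1 site, counts were not scaled by transcript length.

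Libraries held 2194028 to 3834568 counts, of which 60.8 to 92.1% fell on sense signatures of known transcripts, the class used here. Levels are given as counts per 1000000 counts of that class (CPM), where 3 counts, the number a count of 0 still allows, correspond to 0.867 to 1.56 CPM. Pancreas acinar markers made up 474604 and 428511 CPM of the pancreas libraries, and the TMM factors that scale the fits ranged from 0.147 in the male pancreas to 2.49 in the female spinal cord. Summed markers of blood cells, hepatocytes, pancreas acini, parotid acini and gastric cells were highest in bone marrow, liver, pancreas, parotid and stomach, and those of neurons and glia in the nervous tissues. No list marks hippocampus alone, and islet markers reached 224 and 139 CPM in pancreas against 212 to 244 in the 4 nervous libraries. Skeletal muscle markers (10 genes) summed to 252 and 544 CPM in spinal cord, against 5.90 and 5.54 in hippocampus. Markers of sensory ganglion and peripheral neurons (6 genes) summed to 150 and 149 CPM in spinal cord against 9.69 and 8.31 in hippocampus.

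The receptor subunits were far more abundant in nervous tissue than elsewhere. Together the 76 subunits reached 3013 ± 43.3 CPM in hippocampus (SD, n = 2) and 1734 ± 82.3 CPM in spinal cord. Stomach followed with 96.9 ± 48.0 CPM, its female library at 131 and its male library at 62.9, and bone marrow with 81.9 ± 0.32. Liver (37.5 ± 9.42), parotid (33.6 ± 3.36) and pancreas (6.80 ± 2.15 CPM) were lowest. Liver and parotid did not differ beyond their spread, nor did stomach and bone marrow. In bulk tissue, fewer cells of a type and less RNA per cell cannot be told apart. The order of the non-neural tissues depends on scaling. With TMM factors applied, pancreas rose to 40.6 CPM and parotid to 60.2, beside bone marrow at 56.2, and liver was lowest at 35.9. Hippocampus stood 58.7-fold over the mean of the non-neural tissues without TMM factors and 24.9-fold with them. For spinal cord the ratio went from 33.8 to 13.2.

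**Figure D1:**
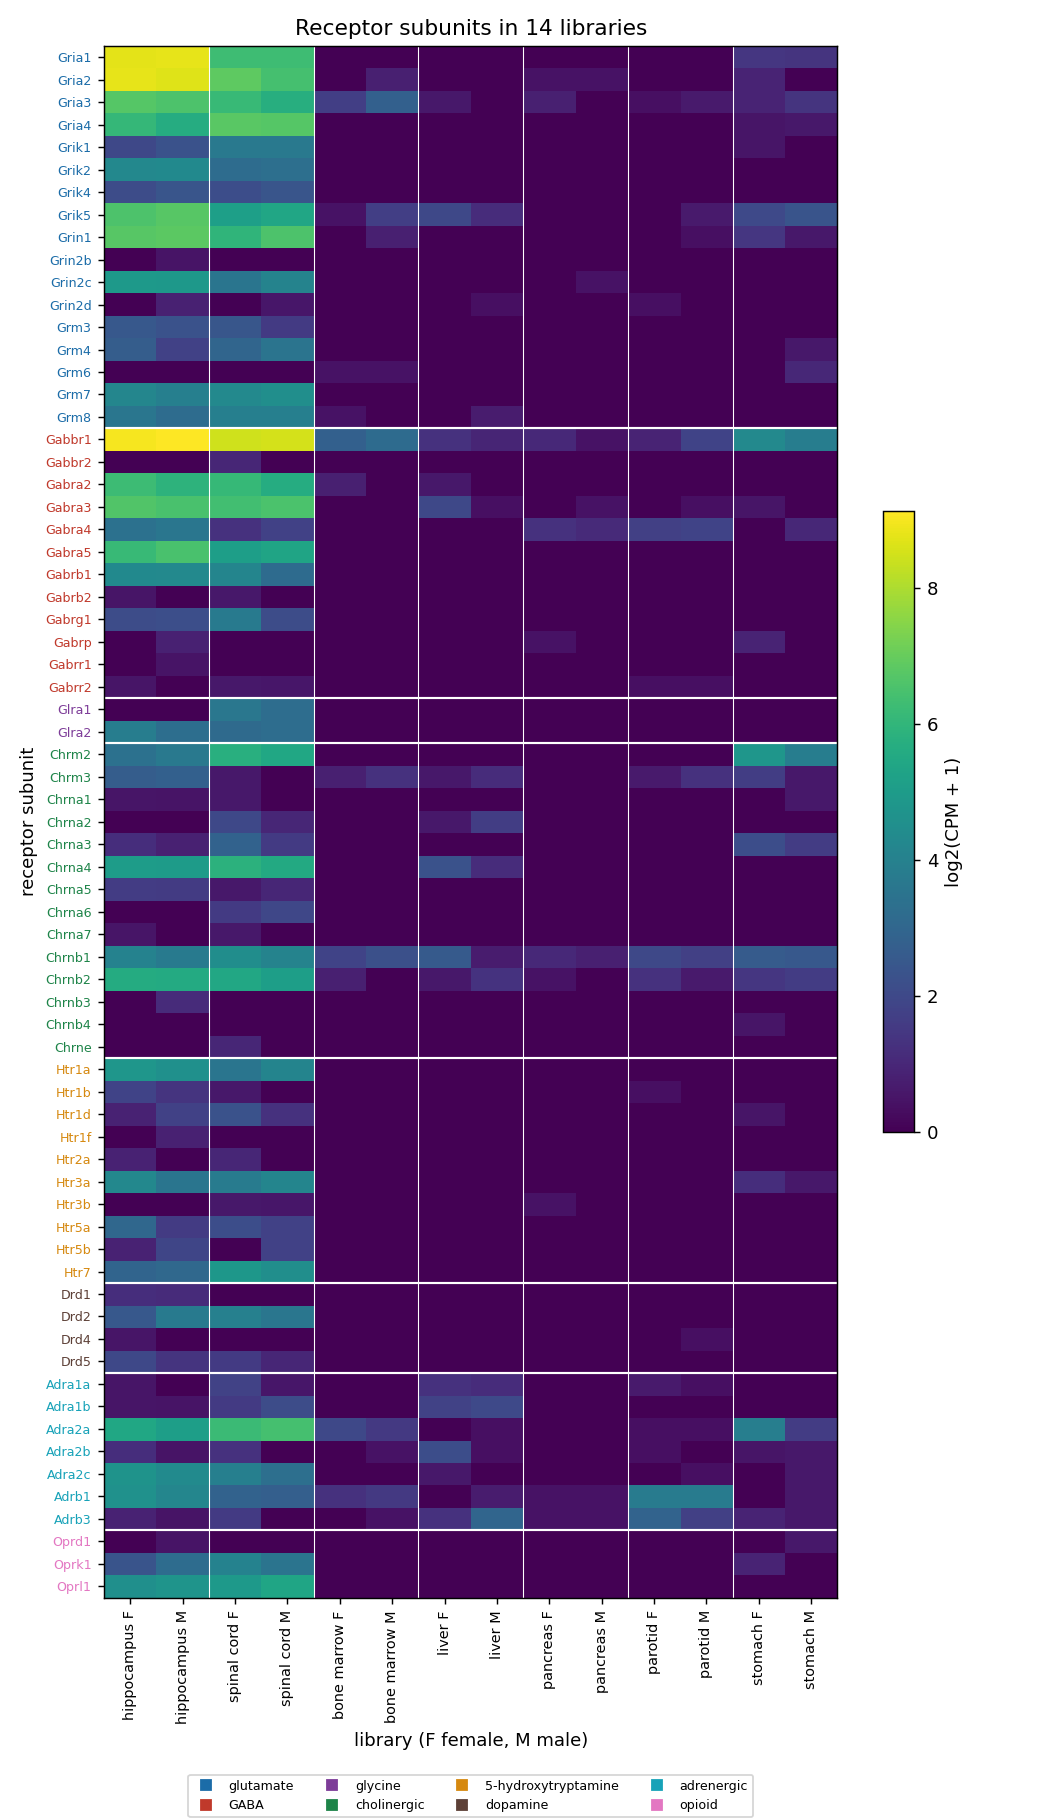
Level of 69 of the 76 receptor subunits (rows, grouped and coloured by family) in the 14 libraries (columns), as log2(CPM + 1) by colour; 1 library per sex and tissue. The 4 nervous libraries on the left are bright across most families and dark in most of the 10 other libraries.

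Of the 76 subunits, 30 had no count in any of the 10 non-neural libraries, 19 had 1 to 3 counts there in all, and 27 had more. Chrnb4 and Grm6 were the 2 with no count in the 4 nervous libraries. Some receptors had too few sense counts to compare. In all, 21 subunits had at most 10 over all 14 libraries, among them Gabbr2, Grin2b, Chrna7, Drd4 and Oprd1. Their sense levels are bounded rather than measured, and Grin2b and Gabbr2 had more counts outside the sense class.

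Nervous tissue was compared with the 5 other tissues in 1 fit over all libraries, with tissue and sex as terms (edgeR quasi-likelihood test, Benjamini-Hochberg adjustment over 14682 genes). A gene was called when it changed at least 2-fold with an adjusted p below 0.05. Of the 88 members, 54 passed the filter on low counts. Of these, 44 were called higher in nervous tissue, where 30.8% of all genes tested were called higher, and 2 were called lower, against 14.5% of all genes. The median log2 fold was 5.79 for the members tested and 0.22 for all genes tested. With the 13 members that had no non-neural count placed at their lower bound in unscaled CPM, the members' median was 4.43. Of the 54, 41 did not reach 10 counts in both libraries of any non-neural tissue. Most of the 41 could pass the filter only through nervous tissue, so the numbers called describe the members and are no support. Adrb3 and Chrnb1, also among the 41, reached the filter's level in non-neural libraries. Leaving out any of the 14 libraries kept 42 of the 44 calls; Gabra4 was among the 2 others, lost without the male spinal cord library (adjusted p = 0.0701).

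Because 39 of the 54 had a non-neural tissue at 0, where a fitted fold depends on the prior count, the ratio of pooled CPM is given for them. Its 95% interval covers counting error only. Where all non-neural libraries were at 0, the ratio is a lower bound, taken against 3 counts per library. Ratios and bounds are in unscaled CPM. The TMM factors, 0.183 and 0.147 in pancreas, would lower the bounds, and those of Grm3, Grik4 and Htr5a would not hold. Ratios would move too, those of Gria2 and Gabra3 to below the intervals printed for them. The single counts of Gria2 in the pancreas libraries, 0.362 and 0.377 CPM unscaled, become 1.97 and 2.57 CPM with the factors. The adjusted p-values beside ratios and bounds come from the TMM-scaled fit.

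Among glutamate receptors, 15 of 16 subunits tested were called higher in nervous tissue. Here and in each family below, the share of all genes tested is 30.8%. Most glutamate, GABA and serotonin subunits tested could pass the filter only through nervous tissue, so these numbers describe the members and are no support. The AMPA subunits carry most fast excitation. Gria1 gave 1010 and 1116 counts in the female and male hippocampus and 156 and 162 in spinal cord, and otherwise only 4 and 3 in stomach. Gria2, the subunit that makes AMPA receptors impermeable to calcium, gave 1043 and 1037 in hippocampus and 233 and 179 in spinal cord. It had at most 2 counts in any other library. Neither gene overlapped between nervous and non-neural libraries. The ratio was 1055 (511 to 2626) for Gria1 and 1254 (576 to 3422) for Gria2 (adjusted p = 3.99e-11 and 2.35e-11).

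Gria4 reversed the order of the nervous tissues, with 158 and 125 counts in hippocampus and 224 and 217 in spinal cord, and 1 count in each stomach library. Its ratio to non-neural tissue was 1093 (302 to 9045), resting on those 2 counts. Gria3 was the AMPA subunit with counts in all 7 tissues. It gave 249 and 238 counts in hippocampus, 142 and 108 in spinal cord, and 6 and 16 in bone marrow, with 0 to 3 in the other libraries. Its log2 fold was 5.02 ± 0.34 (SE; adjusted p = 5.03e-10).

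Of the NMDA receptor subunits, Grin1, which every NMDA receptor contains, gave 254 and 286 counts in hippocampus and 125 and 198 in spinal cord, and 0 to 4 elsewhere, a ratio of 326 (165 to 757). Among its glutamate-binding partners, Grin2c gave 68 and 71 counts in hippocampus and 22 and 33 in spinal cord, with 1 count in the male pancreas. Grin2b, a main forebrain partner, had 1 sense count over all libraries and Grin2d had 5. Outside the sense class, Grin2b had 29 counts read as other sites of the transcript and 19 read as reverse strand. Grin2d had 11 and 12 there. Sense counts alone therefore do not rank these partners.

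Kainate receptors were led by Grik5, a subunit that needs a partner such as Grik2 to form channels. It gave 223 and 272 counts in hippocampus and 70 and 87 in spinal cord, and at most 8 in any other library (ratio 57.9, 41.0 to 84.4). Grik2 gave 43 and 48 in hippocampus and 17 and 19 in spinal cord with none elsewhere, at least 11.9-fold higher. Grik4 was at least 3.38-fold higher, with 8 and 11 counts in hippocampus and 7 and 9 in spinal cord, but was not called by DESeq2 (adjusted p = 0.161). Grik1 gave 7 and 10 counts in hippocampus and 24 and 25 in spinal cord, with 1 in the female stomach.

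The metabotropic glutamate receptors were rarer. Grm7, an inhibitory presynaptic receptor, was the highest of them, with 41 and 36 counts in hippocampus and 38 and 45 in spinal cord and none elsewhere, at least 15.7-fold higher. Grm8 and Grm4, of the same inhibitory group, had ratios of 107 (35.5 to 526) and 166 (28.6 to 6679), and Grm3 was at least 3.26-fold higher, without a call by DESeq2 (adjusted p = 0.178). Grm6, known from the retina, had 4 counts, all in bone marrow and stomach.

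Of 15 GABA receptor subunits 9 were tested, and all 9 were called higher in nervous tissue. Gabbr1, the GABA-binding subunit of the metabotropic GABA-B receptor, was the most abundant of the 76 receptor subunits in both nervous tissues. It gave 1197 and 1403 counts in hippocampus and 713 and 770 in spinal cord. Bone marrow had 16 and 22, stomach 43 and 26, and the other libraries at most 9. Its log2 fold was 5.55 ± 0.25 (adjusted p = 2.82e-12). Gabbr2, the partner that Gabbr1 needs to reach the cell surface, had 2 sense counts, both in the female spinal cord.

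The GABA-A alpha subunits set where GABA and benzodiazepines act. Gabra3 gave 233 and 227 counts in hippocampus and 168 and 192 in spinal cord (ratio 248, 134 to 518), and Gabra2 gave 180 and 147 and 138 and 103 (ratio 572, 195 to 2781). Gabra5, known for the hippocampus, gave 164 and 227 counts there and 68 and 82 in spinal cord, with none in the 10 other libraries, at least 50.7-fold higher. Gabra4 was the exception, with 23 and 28 counts in hippocampus and only 3 and 5 in spinal cord, where its 1.47 and 2.39 CPM overlapped with the 2.34 and 2.60 of parotid.

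Of the partners that complete a GABA-A receptor, Gabrb1 gave 45 and 47 counts in hippocampus and 34 and 17 in spinal cord, and Gabrg1 gave 8 and 9 and 25 and 7, neither with a count elsewhere. Gabrb1 was at least 13.6-fold and Gabrg1 at least 4.92-fold higher. Gabrb2, Gabrp and the rho subunits Gabrr1 and Gabrr2 had 1 to 5 sense counts each over all libraries, and Gabrb2 and Gabrp had more outside the sense class.

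The glycine receptor subunits Glra1 and Glra2 had counts in nervous libraries only. Glra1, the adult channel subunit of the spinal cord, gave 23 and 18 counts in spinal cord and 0 in the other 12 libraries, both hippocampus libraries included. Glra2, the subunit of the developing nervous system, gave 32 and 22 in hippocampus and 16 and 18 in spinal cord, at least 8.45-fold over the non-neural libraries. Glra2 was called (adjusted p = 1.06e-05). The nervous against non-neural test gave no usable estimate for Glra1, since it was at 0 in 6 of the 7 tissues.

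Of 5 cholinergic subunits tested, 3 rose. Chrna4 and Chrnb2 together form the main nicotinic receptor of the brain. Chrnb2 gave 115 and 118 counts in hippocampus, 89 and 70 in spinal cord and 0 to 5 elsewhere (log2 fold 4.17 ± 0.36, adjusted p = 1.14e-08). Chrna4 gave 76 and 79 in hippocampus and 118 and 95 in spinal cord, and outside nervous tissue 8 and 4 in liver only (ratio 92.6, 52.4 to 181). The ganglion-type subunit Chrna3 gave 13 and 4 counts in spinal cord, 8 and 4 in stomach and 3 and 2 in hippocampus.

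The muscarinic receptors differed from each other. Chrm2, coupled to inhibitory G proteins, gave 109 and 88 counts in spinal cord, 23 and 30 in hippocampus and 61 and 26 in stomach, so that nervous and stomach libraries overlapped (ratio to non-neural tissue 8.68, 6.77 to 11.2). Chrm3, the receptor of gland secretion and smooth muscle contraction, was not called, with 13 and 15 counts in hippocampus and 0 to 5 in every other library. Chrnb1, a muscle subunit, had counts in all 14 libraries, from 2 in the male liver and pancreas to 43 in the female spinal cord. Its log2 fold was 0.98 ± 0.33 (adjusted p = 0.0163), just under the 2-fold minimum. The other muscle subunits Chrna1 and Chrne had 0 or 1 and 0 or 2 counts per library, also where the muscle markers were present.

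Of 10 serotonin receptors 3 were tested, and all 3 were called higher, having passed the filter only through nervous tissue. Htr1a, an inhibitory receptor, gave 64 and 58 counts in hippocampus and 22 and 34 in spinal cord, and Htr7, which raises cyclic AMP, gave 16 and 19 in hippocampus and 56 and 45 in spinal cord. Neither had a count elsewhere, so they were at least 16.8-fold and 13.8-fold higher. Htr3a, the serotonin-gated ion channel, gave 43 and 27 in hippocampus and 26 and 35 in spinal cord, while stomach had 3 and 1. Htr5a was at least 3.27-fold higher, with 5 to 17 counts in each nervous library. The other 6 had at most 8 counts in any library.

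Drd2, the inhibitory dopamine receptor, gave 11 and 31 counts in hippocampus and 30 and 23 in spinal cord, at least 9.32-fold over non-neural tissue, again without a call by DESeq2 (adjusted p = 0.136). Drd1, its stimulatory counterpart, had 3 and 3 counts in hippocampus alone. Among opioid receptors, Oprl1, the nociceptin receptor, gave 53 and 64 counts in hippocampus and 61 and 84 in spinal cord and none elsewhere, at least 25.8-fold higher; DESeq2 did not call it (adjusted p = 0.0546). Oprk1, the kappa receptor, gave 10 and 21 in hippocampus and 32 and 22 in spinal cord with 2 counts in the female stomach (ratio 128, 34.5 to 1077). Oprd1, the delta receptor, had 2 counts in all.

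Of 5 adrenergic receptors tested, 3 were called higher. Adra2a, which damps noradrenaline release, gave 99 and 84 counts in hippocampus and 150 and 177 in spinal cord, while stomach had 32 and 4 (ratio 29.6, 22.2 to 40.2). Adra2c gave 59 and 50 in hippocampus and 29 and 19 in spinal cord, with at most 1 elsewhere (ratio 158, 53.1 to 775). Adrb1, the cardiac type of beta receptor, gave 55 and 44 counts in hippocampus but 13 and 12 in spinal cord, where its 6.35 and 5.74 CPM lay below the 12.9 and 13.0 of parotid. Its log2 fold was 1.76 ± 0.42 (adjusted p = 0.00159). Adrb3 was not called.

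The accessory proteins were broadly expressed, 8 of them with at least 10 counts in both libraries of a non-neural tissue. Of the 11 tested, 7 were called higher and 1 lower. Caly, a vesicle protein that binds dopamine receptors, gave 169 and 200 counts in hippocampus and 80 and 98 in spinal cord against at most 3 elsewhere (ratio 413, 160 to 1521). The AMPA receptor scaffold Grip1 gave 60 and 65 and 40 and 19, against at most 3. Grina, a membrane protein titled as NMDA receptor-associated, rose by a log2 fold of 1.70 ± 0.21 and the receptor kinase Grk3 by 2.68 ± 0.38 (adjusted p = 1.70e-06 and 7.23e-06).

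The GABA receptor-associated proteins belong to the ubiquitin-like family that also serves autophagy. Gabarapl1 rose by a log2 fold of 1.67 ± 0.20 and Gabarapl2 by 1.66 ± 0.40 (adjusted p = 1.34e-06 and 0.00173). Gabarap, with 95 to 455 counts in every library, had a log2 fold of -1.25 ± 0.22 (adjusted p = 8.43e-05), which turned to 0.47 (adjusted p = 0.0572) with library totals in place of TMM. Its direction is therefore set by the scaling.

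Hippocampus and spinal cord were then set against each other. The AMPA subunits Gria1 and Gria2, abundant in the hippocampus, were several times lower in spinal cord, while the glycine receptor subunit Glra1 and the muscarinic receptor Chrm2 were higher there. Of the 54 members tested, 7 were called higher in hippocampus, where 3.26% of all genes tested were, and 2 in spinal cord, against 3.13%. All 9 are receptor subunits. At an unadjusted p under 0.05 there were 18 members.

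Gria1 showed the largest difference among the glutamate receptors, at 425 and 441 CPM in hippocampus and 76.2 and 77.5 in spinal cord, a log2 fold of 2.61 ± 0.38 (adjusted p = 0.000745). Gria2 stood at 439 and 410 CPM against 114 and 85.6 (log2 fold 2.22 ± 0.43, adjusted p = 0.00412). Grik5 stood at 93.9 and 108 CPM against 34.2 and 41.6 (1.53 ± 0.42, adjusted p = 0.0376). In each of the 3 genes both hippocampus libraries lay above both spinal cord libraries.

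Gabra4, an alpha subunit of receptors outside the synapse, had 23 and 28 counts against 3 and 5 (log2 fold 2.50 ± 0.70, adjusted p = 0.0411). Adrb1 had 55 and 44 counts against 13 and 12 (1.85 ± 0.50, adjusted p = 0.0337). Chrm3 had 13 and 15 counts against 1 and 0, a pooled ratio of 23.6 (3.91 to 967; adjusted p = 0.0245).

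In the other direction, Glra1 had 23 and 18 counts in spinal cord and none in hippocampus, at least 8.10-fold higher (adjusted p = 0.00708). Chrm2 stood at 53.2 and 42.1 CPM in spinal cord and 9.69 and 11.9 in hippocampus (log2 fold -1.99 ± 0.47, adjusted p = 0.0208). For both genes each spinal cord library lay above each hippocampus library. Among the members not called were Gabra5 (1.24 ± 0.40, adjusted p = 0.0927), Htr7 (-1.64 ± 0.57, adjusted p = 0.117) and Gria4 (-0.77 ± 0.37, adjusted p = 0.302).

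**Figure D2:**
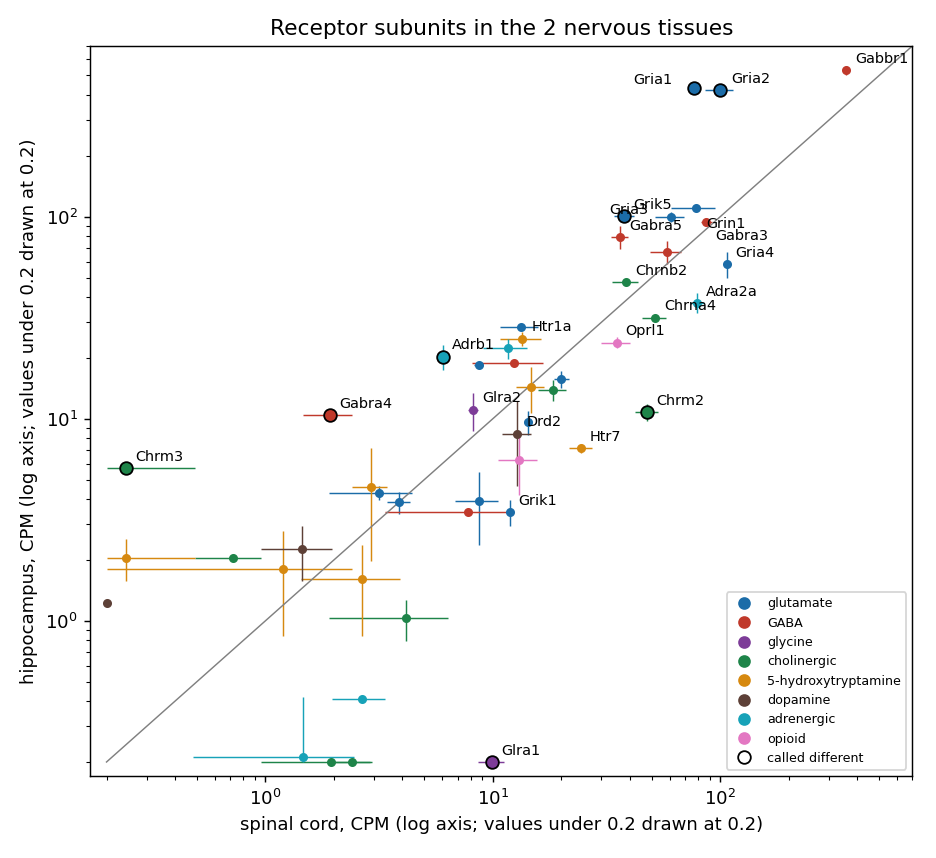
Mean level of receptor subunits with a mean of at least 1 CPM in either tissue, in spinal cord (x, CPM, log axis) and hippocampus (y, CPM, log axis), coloured by family; bars span the female and male library, levels under 0.2 CPM are drawn at 0.2, the line marks equal levels, and large outlined points are called. Gria1 and Gria2 lie furthest above the line among the abundant subunits drawn, and Glra1 and Chrm2 below it.

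These calls rest on 2 libraries a tissue. Gria1 kept its call whichever of the 14 libraries was left out. Gria2 lost it without the male hippocampus library or either spinal cord library (adjusted p = 0.0619 to 0.143). Glra1 and Chrm2 lost theirs without any of the 4 nervous libraries, and Chrm3, Adrb1, Grik5 and Gabra4 without these and at least 1 other library. Adrb1, Grik5 and Gabra4 also lost their calls with library totals, with limma voom and with the most abundant signature only (adjusted p = 0.0529 to 0.139), Gabra4 and Chrm2 with DESeq2 (0.0535 and 0.0551), and Gria2, Adrb1 and Grik5 with code 1 signatures only (0.0829, 0.0602 and 0.0515). With all libraries kept, Gria1 and 1 other of the 7 higher calls held under every one of the other settings. Chrm3 did where it could be tested, which excludes code 1 signatures only. The number called higher ranged from 1 (without the male hippocampus or male spinal cord library) to 12 (without the male stomach library). It was 2 without the female spinal cord, 3 without the female hippocampus or the male bone marrow, 4 without the female parotid and 11 without the female stomach library.

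Summed by family, glutamate receptors stood at 1324 ± 24.2 CPM in hippocampus and 560 ± 1.19 in spinal cord (SD, n = 2), and GABA receptors at 1382 ± 2.38 and 763 ± 51.4, with no overlap in either. The remaining families stood closer or leaned to the spinal cord. Cholinergic receptors, summed without Chrm1, stood at 114 ± 2.20 CPM against 166 ± 32.6, and adrenergic receptors at 82.8 ± 15.8 against 104 ± 0.50. Serotonin receptors summed to 57.3 and 60.6 CPM, a ratio of 0.945 that became 1.03 with TMM scaling, so no direction can be given.

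Subunit shares were computed for AMPA, glycine and kainate receptors. Gria1 and Gria2 were 41.1 and 42.4% of AMPA subunit counts in the female hippocampus and 44.4 and 41.2% in the male. In spinal cord Gria1 fell to 20.7 and 24.3%, while Gria4 was 29.7% (26.4 to 33.1, exact 95% interval) and 32.6% (29.0 to 36.3), against 6.42 and 4.97% in hippocampus. The intervals of the hippocampus libraries lay apart from those of the spinal cord libraries for both Gria1 and Gria4. Such intervals cover counting error only, and signatures of different subunits may be captured unequally.

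Of glycine alpha subunit counts, Glra1 held 59.0 and 50.0% in spinal cord and none of 32 and 22 counts in hippocampus, which allows a share of up to 10.9 and 15.4% there (exact 95% interval). Grik1 held 2.49 and 2.93% of kainate subunit counts in hippocampus and 20.3 and 17.9% in spinal cord, where Grik5 still led with 59.3 and 62.1%.

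**Figure D3:**
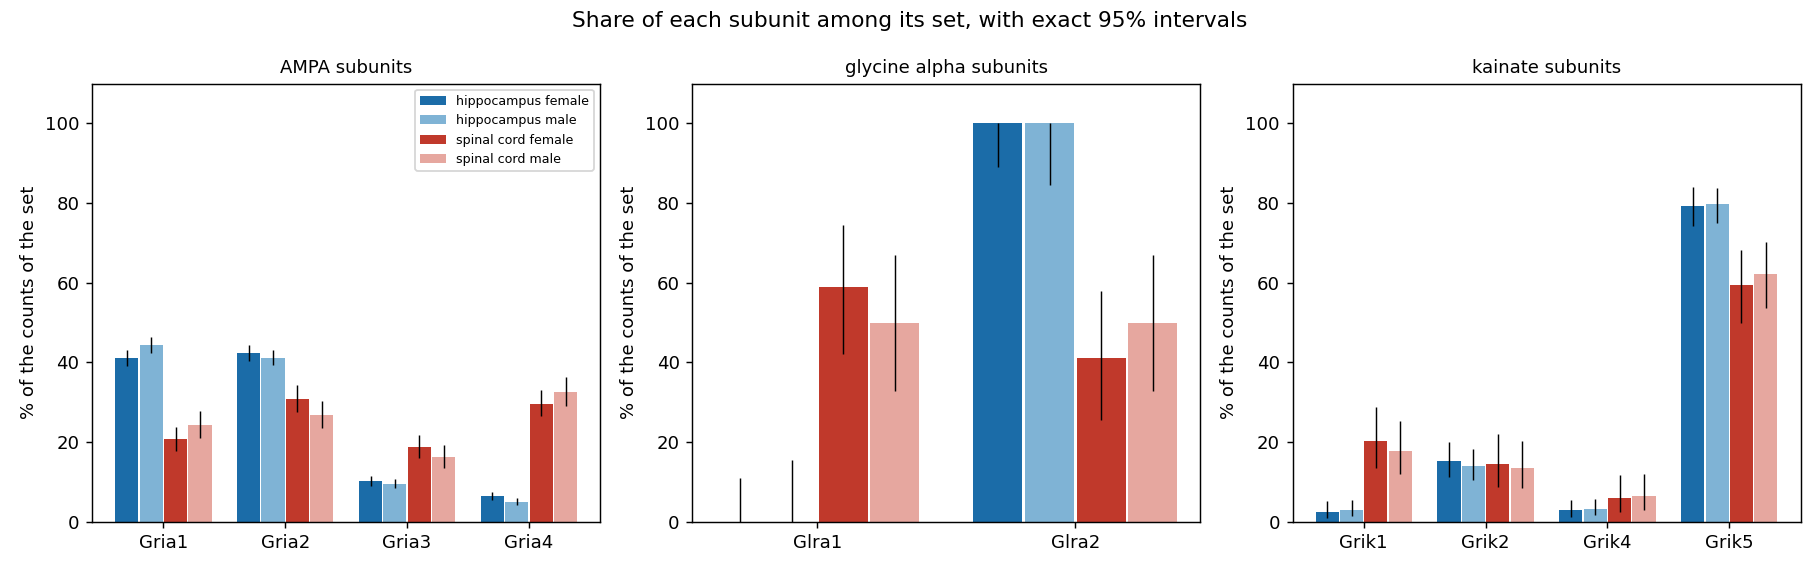
Share of each subunit in the counts of its set (y, %), for AMPA, glycine alpha and kainate subunits (x), in the female and male hippocampus (dark and light blue) and spinal cord (dark and light red); bars are single libraries and lines exact 95% intervals of counting error. Gria1 holds a larger share in hippocampus, and Gria4, Glra1 and Grik1 in spinal cord.

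Genes that supply the transmitters and hold the receptors in place were counted beside them. Of 28 genes of transmitter synthesis and transport tested (37 listed), 22 rose and 1 fell in nervous tissue, against 30.8 and 14.5% of all genes tested. Between the nervous tissues 2 were higher in hippocampus and 7 in spinal cord, against 3.26 and 3.13% of all genes. As with the receptors, genes of these lists that are rare elsewhere could pass the filter only through nervous tissue. Slc17a7, the vesicular glutamate transporter of the forebrain, stood at 76.4 ± 4.96 CPM in hippocampus and 1.94 ± 0.71 in spinal cord, and its relative Slc17a6 at 27.4 ± 1.22 and 188 ± 31.9. Of 30 receptor scaffolds and auxiliary proteins tested (36 listed), 26 rose and 2 fell in nervous tissue. This list shares Grip1, Gabarapl1 and Gabarap with the members. Gabarap, whose direction is set by the scaling, was 1 of the 2 that fell. In hippocampus 7 of the list were higher than in spinal cord. Among these were the AMPA receptor auxiliary subunit Cnih2 (log2 fold 2.86 ± 0.40) and Homer1 (3.12 ± 0.55), which links metabotropic glutamate receptors.

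Cell type markers differed between the nervous tissues as well. Neuron markers (8 genes, none at 0) summed to 4221 and 4276 CPM in hippocampus and 9607 and 8929 in spinal cord. Of the 8, 1 was called higher in hippocampus and 2 in spinal cord, with a median log2 fold of -0.36, so the gap between the sums rests on some of them. Oligodendrocyte markers (5 genes, none at 0) summed to 4101 and 4462 against 17436 and 17168. Of 8 skeletal muscle markers tested, 8 were higher in spinal cord, and of 5 markers of sensory ganglion and peripheral neurons 2 were. Their part in the receptor differences was not tested.

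Some members had a second abundant signature, which gives another reading of the same gene from the same libraries. The second signature of Gria1, GATCcatgtctcccgtgtca, gave 280 and 319 counts in hippocampus and 52 and 51 in spinal cord. That of Gria2, GATCtctcgtgattgatagg, gave 385 and 389 against 114 and 73. The second signature of Chrm2, GATCttttggaggaataaat, gave 9 and 19 counts in hippocampus and 49 and 35 in spinal cord. In each of the 3 genes the second signature leaned the same way as the gene's sum.

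Of 24 members with at least 2 signatures of 20 or more counts, Chrna4 was the only one whose main signature took a share in both hippocampus libraries with exact 95% intervals apart from those of both spinal cord libraries.
Chrna4, the first signature: GATCttagttgtttctgtct
Chrna4, the second signature: GATCagggcaaggccattgt
The first was 23 of 76 and 28 of 79 counts in hippocampus (30.3 and 35.4%) and 105 of 118 and 79 of 95 in spinal cord (89.0 and 83.2%). The second was 60.5 and 51.9% in hippocampus and 9.32 and 15.8% in spinal cord. The order of the signatures was thus turned between the tissues, and the 12 liver counts leaned as in spinal cord, with 6 of 8 and 3 of 4 on the first signature.

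The receptor kinase Grk2, singled out after its values were seen, divided its counts by tissue too.
Grk2, the first signature: GATCcctaaccctgggctgg
Grk2, the second signature: GATCcacccatgtgctgccc
The first held 92.2 and 88.3% in hippocampus, 67.5 and 84.1% in spinal cord and 45.5 and 53.6% in bone marrow. The second held 6.59 and 6.38% in hippocampus, 17.2 and 10.9% in spinal cord and 48.1 and 42.9% in bone marrow, and between 31.5 and 60.0% in the liver, parotid and stomach libraries. Its share in the 4 nervous libraries lay below that in each of those 8 libraries.

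**Figure D4:**
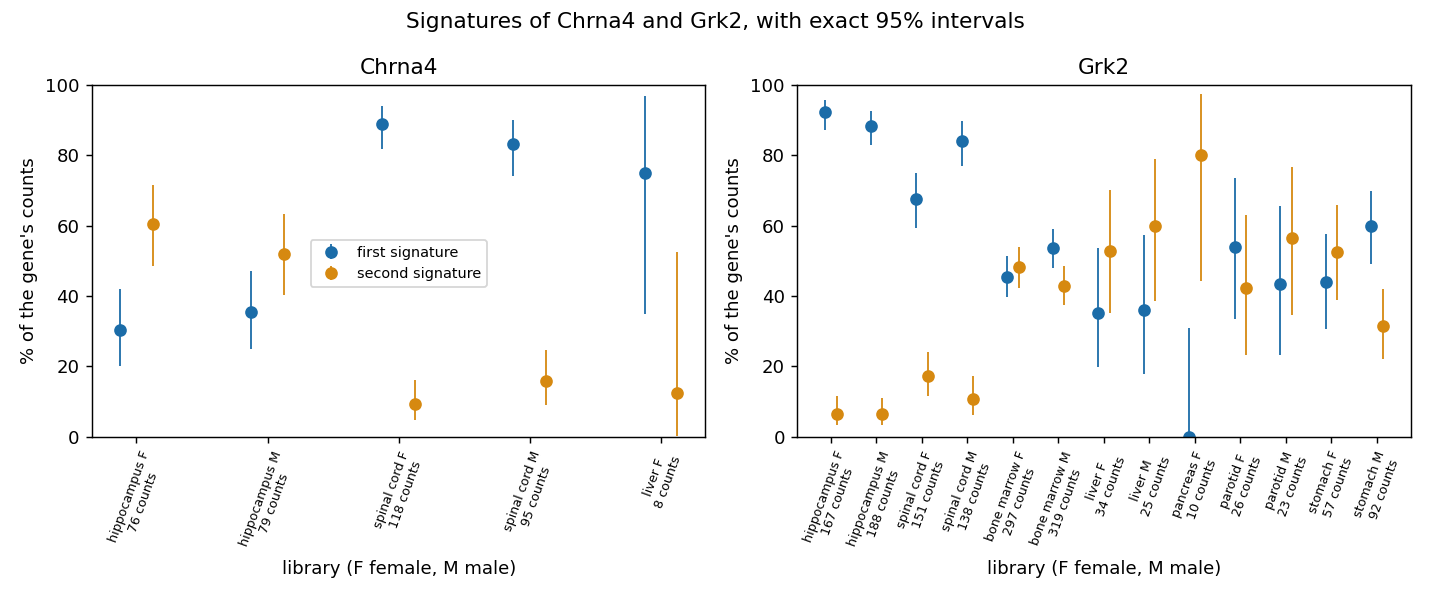
Share of the gene's counts (y, %) on the first (blue) and second (orange) signature of Chrna4 and Grk2, for libraries with at least 8 counts of the gene (x, counts given); lines are exact 95% intervals of counting error. For Chrna4 the order of the signatures turns between hippocampus and spinal cord, and for Grk2 the second signature is rare in the 4 nervous libraries only.

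Outside the nervous system, each tissue was set against the other 4 non-neural tissues. Over the 5 comparisons 19 calls were higher and 5 lower among the members. No member was called lower in parotid or pancreas, where 2.99 and 3.15% of all genes tested were by edgeR. At an unadjusted p under 0.05 there were 2 in parotid and 1 in pancreas; DESeq2 called 0 in each and limma voom 1 in each, while library totals in place of TMM gave 2 in parotid and 15 in pancreas. A log2 fold is given where each tissue had a count. Lower bounds are in unscaled CPM, and TMM factors would lower those of stomach and liver.

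Parotid gland stood out for beta adrenergic receptors, which drive the secretion of salivary proteins. In parotid 4 members were called higher, where 10.1% of all genes tested were. Adrb1 gave 44 and 45 counts (12.9 and 13.0 CPM) against at most 5 in any other non-neural library (log2 fold 5.05 ± 0.46, adjusted p = 2.37e-07), and was the highest receptor of this tissue. Its kinase Grk3 gave 58 and 57 counts against 0 to 50 elsewhere in non-neural tissue (2.82 ± 0.51, adjusted p = 0.000740), although the female stomach library lay higher at 21.7 CPM. Adrb3, the receptor of fat cells, gave 22 and 8 counts in parotid and 3 and 23 in liver (2.94 ± 0.75, adjusted p = 0.0121); without the female parotid library the call was lost (adjusted p = 0.507). The female parotid and male liver libraries were high, so the tissues overlapped.

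The GABA-A subunit Gabra4 gave 8 and 9 counts in parotid and 4 and 3 in pancreas, 0 and 2 in stomach and none in bone marrow or liver. It was called in both glands (adjusted p = 0.00212 and 0.00381), and was the 1 member called in pancreas, where 5.07% of all genes were called higher. Without either pancreas library that call was lost (adjusted p = 0.103 without the female, 0.0512 without the male). Skeletal muscle markers summed to 262 and 343 CPM in parotid, with 1 of 10 at 0 in each library, and their part in these values was not tested.

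In stomach 7 members were called higher, where 18.9% of all genes tested were, and 2 lower (4.04%). Chrm2 gave 61 and 26 counts and 0 in the other 8 non-neural libraries, at least 18.7-fold higher (adjusted p = 9.08e-07). Gabbr1 gave 43 and 26 counts (log2 fold 2.08 ± 0.37, adjusted p = 0.000311). Adra2a gave 32 and 4, and without the female library its call was lost (adjusted p = 0.161). The 2 stomach libraries thus differed widely for Adra2a and less for Chrm2 and Gabbr1.

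The other 4 receptors called in stomach rest on few counts, among them 4 and 3 for Gria1, 7 and 8 for Grik5 and 3 and 1 for Htr3a (adjusted p = 0.00233, 0.0466 and 0.0496). Gria1 was not called with its most abundant signature only (adjusted p = 0.268), Grik5 with limma voom (0.0849), nor Htr3a with DESeq2 (0.145). Grik5 lost its call without any of 6 libraries and Htr3a without any of 13. Grina was lower (log2 fold -2.19 ± 0.36, adjusted p = 0.000148), and Adrb1 was lower too, with 0 and 1 counts, but not without the female stomach or the male liver library, nor with library totals, DESeq2, code 1 signatures or the most abundant signature only (adjusted p = 0.0774 to 0.100). Smooth muscle markers (5 genes, none at 0) summed to 3872 CPM in the female stomach library and 6332 in the male one, and neuron markers (8 genes, none at 0) to 28.2 and 31.2, against at most 5.87 in the other non-neural libraries; their part in these values was not tested. Chrm2 stood at 26.4 CPM in the female stomach library and 13.5 in the male one.

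Bone marrow had 5 members called higher, where 19.7% of all genes tested were, and 2 lower (14.5%), namely Adrb3, which lost its call without any of the bone marrow and pancreas libraries, and Gabarapl1, which lost it with library totals in place of TMM (adjusted p = 0.121). Grk2, a kinase that silences beta receptors, gave 297 and 319 counts (log2 fold 2.40 ± 0.32, adjusted p = 8.29e-06), and Grina gave 1055 and 1279 (2.40 ± 0.27, adjusted p = 9.70e-07). Neither overlapped with other non-neural libraries. Gria3 gave 6 and 16 counts (1.81 ± 0.61, adjusted p = 0.0253), and without the male library its adjusted p was 0.545.

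Liver had 2 members called higher, where 16.7% of all genes tested were, and 1 lower (8.7%). Gabarapl1, an autophagy protein, gave 668 and 631 counts (log2 fold 2.55 ± 0.25, adjusted p = 1.74e-07), above every other non-neural library. Chrna4 gave 8 and 4 counts against 0 in the other 8 non-neural libraries, at least 2.30-fold higher in unscaled CPM (adjusted p = 0.000787). With TMM factors applied this bound would not hold. Gabbr1, with 3 counts in each library, was lower (-2.22 ± 0.56, adjusted p = 0.00505), but not without the male liver library (adjusted p = 0.104).

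**Figure D5:**
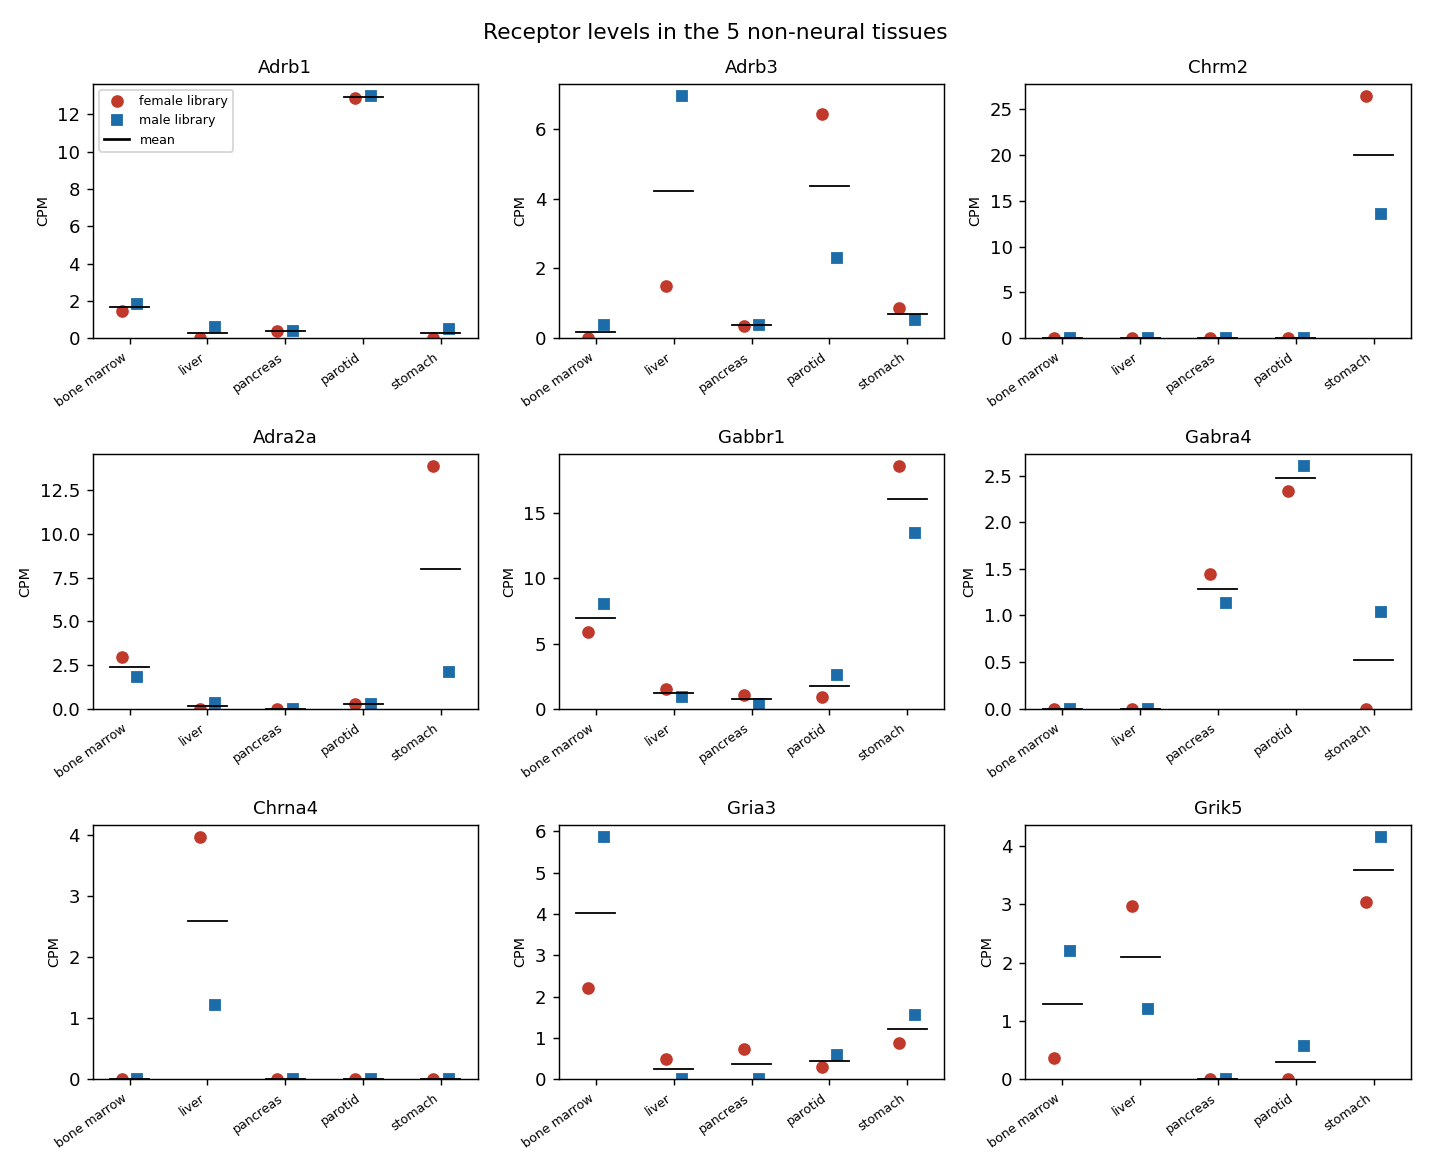
Level (y, CPM, linear axes starting at 0 and scaled per panel) of 9 receptor subunits in the 5 non-neural tissues (x); circles are female and squares male libraries, and lines their mean. Adrb1 is high in parotid (12.9 and 13.0 CPM), Gria3 in the male bone marrow, and Chrm2 in stomach (26.4 and 13.5 CPM), where the libraries differ.

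Over the 7 tissues no member differed between males and females, where 0.0613% of all genes tested were called in either direction by the edgeR test without a minimum fold. At an unadjusted p under 0.05 there was 1 member, and DESeq2 and limma voom called none. Gabarapl2 (0.60 ± 0.39) and Grk3 (-0.52 ± 0.34) had the next smallest p, both with an adjusted p of 1. Within a tissue there is 1 library of each sex and no test.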

How the data were processed

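Signature libraries from 14 mouse RNA samples (7 tissues, 1 female and 1 male library each) were sequenced after DpnII digestion and MmeI capture, per the labels' protocols. The deposited values are whole-number counts per 20-base signature with an annotation code, a UniGene id and a title, per the file contents. The sources used here give neither the aligner nor the genome and UniGene builds, nor the meaning of the codes. Codes 1 to 4 were read as sense signatures of known transcripts. Their counts were summed per id, and each file's 1 blank row was left out.

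Members were ids whose title begins with a receptor family name, as the opening of the report states. The members, the gene lists and the markers were chosen with earlier results of these data known. Of the members, 72 carried a RefSeq accession, and 71 of these matched the symbol used.

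Counts were tested with edgeR 4.0.16 (R 4.3.3) after TMM and filterByExpr, with tissue and sex as terms and 6 residual degrees of freedom. Alternatives used limma 3.58.1 and DESeq2 1.42.0, other scalings, filters and signature sets, no sex term, and each library left out. The fit was tested on simulated data. Exact intervals are Clopper-Pearson, at 95%, and cover counting error only, since amplified signatures carry no molecular identifiers. CPM levels are not TMM-scaled, while log2 folds are.

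Named members are up to 20 called per direction by smallest p for both nervous comparisons, up to 8 called higher and the most abundant receptor per non-neural tissue, the 3 with the smallest p for sex, and the leading member of each family; others are named by level. Slc17a7, Slc17a6, Cnih2 and Homer1, from the lists of other genes, were singled out after their values were seen. Some members that this rule names are not reported here, although they enter the counts and sums.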

Additional observations from a re-analysis of the deposited data

Results flagged for a closer look

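Signatures outside codes 1 to 4 were in none of the comparisons. The values here are counts over all 14 libraries, for receptor titles with more than 3 such counts in a nervous library and at least 0.5 times as many as under codes 1 to 4. Under codes 21 to 26, Gria4 had 445 (92 and 75 in hippocampus, 149 and 125 in spinal cord), Grm7 had 155, Gabrp 49, Gabrb2 14 and Grin2a, which had no sense count, 9. Under codes 11 to 16, read as reverse-strand counterparts, Grip1 had 393, Chrnb1 200, Adra1b 46, Grik4 21, Grin2b 19, Grin2d 12, Gabbr2 6 and Gabrb2 6. Under codes 5 and 6, read as other sites of the transcript, Gabarapl2 had 210, Grik4 32, Grin2b 29, Adra1a 24, Htr5a 19, Gabrb2 12 and Grin2d 11. Grin2b and Gabbr2, with 1 and 2 sense counts, had more counts under these codes. The cause was not tested.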

How the results depend on the processing

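The number of members called higher in nervous tissue stayed within 1.5 times of 44 under every other scaling, test, filter and signature set and with any library left out (45 to 49; called lower 2 to 3), and no male against female call appeared (0 to 0 when leaving out a library). With library totals in place of TMM, no member was called lower in nervous tissue (0), Gabarap reversed to 0.47, all genes had a median log2 fold of 1.87 in place of 0.22, and 95.9% of calls in place of 67.9% were higher. Under the same scaling hippocampus had 4 members called higher, and the non-neural tissues together 38 higher and 19 lower, of which pancreas had 15 lower; of all genes called, the share higher went from 61.7 to 1.93% in pancreas, 57.7 to 89.1% in bone marrow, 65.8 to 86.1% in liver, 77.1 to 49.4% in parotid and 82.4 to 98.6% in stomach. Between hippocampus and spinal cord, 2 members were called higher with code 1 signatures only and 4 with the most abundant signature only; lower calls were 0 with DESeq2, 4 with limma voom and 1 with code 1 signatures. In the non-neural tissues limma voom called 51 higher and 50 lower, and code 1 signatures 3 lower; members without a code 1 signature were not tested there. Leaving out 1 library gave 1 to 12 higher and 0 to 4 lower between hippocampus and spinal cord, and 17 to 27 higher and 3 (without the male liver) to 8 (without either stomach library) lower over the non-neural tissues. Of 1200 values of single members under the alternatives, 1106 kept direction and call, 93 kept direction only and 1 reversed. No paired analysis was possible because the labels give no replicate numbers; the sex term stands in the fit, and without it the calls were 44 and 2, and 7 and 2. With 3 counts at 0.867 to 1.56 CPM, the sense levels of the 21 subunits with at most 10 sense counts are bounded rather than measured.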
